A study of Rattus norvegicus with 2 samples.

Results

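Myostatin, the activins, their receptors, follistatin and its relatives were followed in cultured skeletal muscle stem cells (MDSC, muscle-derived stem cells). The cells came from male obese Zucker fa/fa rats, a strain with a mutated leptin receptor that becomes obese and insulin resistant. The 10 genes were Mstn, Gdf11, Inhba and Inhbb (ligands), Fst, Fstl1 and Fstl3 (follistatin and its relatives), and Acvr1b, Acvr2a and Acvr2b (receptors). They were chosen by name, as the rows of the annotated table that carry exactly that symbol. All 10 were found, each with 1 probe set, among 18489 genes.

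The series has 2 samples, 1 labelled late diabetes and 1 labelled early diabetes, each read on 1 Affymetrix Rat Gene 1.0 ST array. Both are MDSC of male Zucker obese fa/fa rats, so both carry the same mutation and no lean control was analysed here. Both were cultured with 20% fetal bovine serum, and the labels give 5.6 mM or 22 mM glucose for each without saying which a sample received. The labels give no age of the rats and no number of animals or wells behind an array, and do not say whether the cells are 1 isolate.

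Myostatin, GDF11 and the activins are ligands of the transforming growth factor beta superfamily. They bind type II receptors (Acvr2a and Acvr2b), which recruit a type I receptor such as Acvr1b, and the complex phosphorylates Smad2 and Smad3. Follistatin wraps around the ligands and keeps them from the receptors, and in skeletal muscle loss of myostatin or excess of follistatin enlarges the tissue.

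The member that differed most was Fst, which encodes follistatin, at 4092 intensity units in the late array against 526 in the early array. That is 7.78-fold higher in the late array, while the other 7 members bright enough to compare lay within 2-fold. Of the ligands, Inhba was bright in both arrays and Mstn was under background in both. Each group has 1 array, so variation between cultures or rats could not be measured, no gene was tested, and every difference describes these 2 arrays. In bulk cultures, more cells of a type that makes an mRNA and more of that mRNA per cell cannot be told apart.

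Values are the authors' normalized intensities, given below as log2 levels, and differences are late minus early on the log2 scale. A gene was compared when its brighter level reached the median of all gene levels over both arrays, which is log2 8.03, and 9738 genes did. A background level of log2 6.83 was taken from the 95th percentile of 1200 olfactory receptor genes, most of which were assumed to be silent here. Of the 10 members, 8 were compared. Mstn and Acvr2b stayed under the floor in both arrays. The median intensity of all probe sets was 183 in the late array and 187 in the early array, and the median difference of all compared genes was 0.06. Probe sets are not calibrated against each other, so levels of different genes are not ranked.

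**Figure D1:**
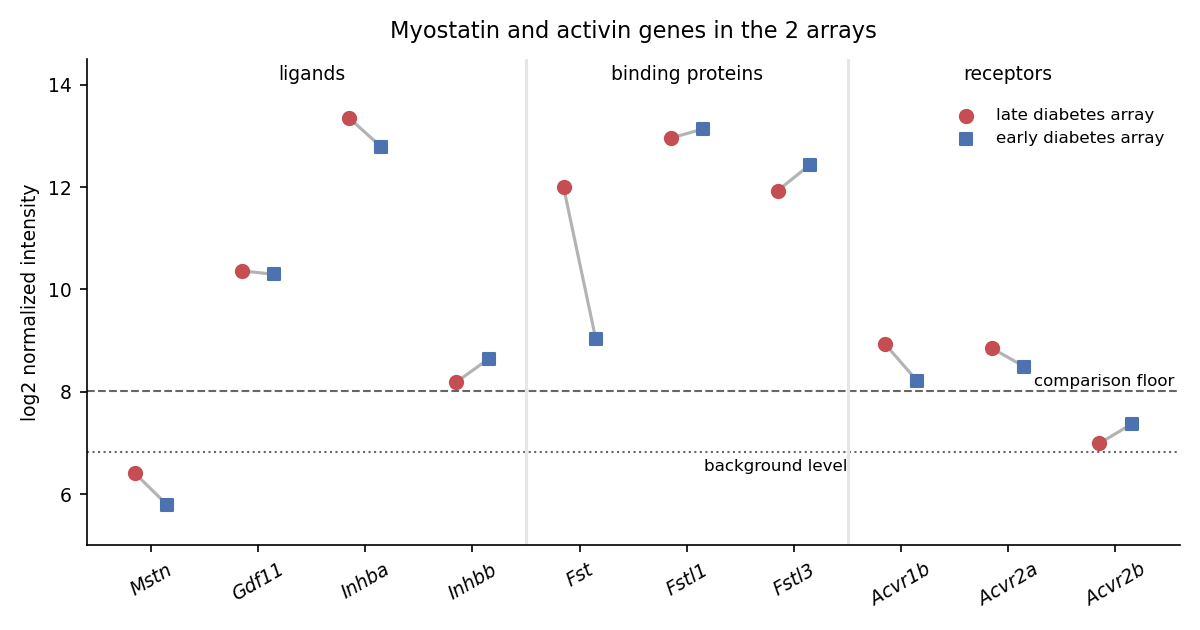
Log2 normalized intensity (vertical axis) of the 10 members, grouped by role, with 1 point for the late array (circle, left) and 1 for the early array (square, right); the lines mark the comparison floor (8.03) and the background level (6.83). Fst is the only member whose points lie more than 1 log2 unit apart, and both Mstn points lie under the background level.

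Among the ligands, Inhba and Inhbb differed in opposite directions. Inhba encodes the beta A subunit, whose dimer is activin A. Its level was 13.35 in the late array and 12.78 in the early array, a difference of 0.57 (1.48-fold higher). Inhbb encodes the beta B subunit of activin B and was at 8.19 in the late array and 8.64 in the early array, a difference of -0.45 (1.37-fold lower). The change of Inhba exceeded that of Inhbb by 1.02. Among all compared genes 12.5% had a difference as high as that of Inhba or higher, and 9.13% one as low as that of Inhbb or lower. Within the brightest quintile of the compared genes, where Inhba lies, 11.3% of 1948 genes were at least as far apart. Within the dimmest quintile, which holds Inhbb, the share was 36.8% of 1948. The beta subunits also join the inhibin alpha subunit to form inhibins, and the alpha gene Inha was under the floor at 7.08 in the late array and 7.27 in the early array.

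The promoters of these beta subunit genes are shown because the genes went opposite ways and their start regions differ in composition. Each is the 250 bases before the start of the RefSeq transcript, 5′ to 3′ (RefSeq, GRCr8), with the letters TATAAA, read on both strands, in capitals. Inhba lies on the minus strand at chr17:53804509-53804758 and Inhbb on the minus strand at chr13:33089374-33089623.
Inhba: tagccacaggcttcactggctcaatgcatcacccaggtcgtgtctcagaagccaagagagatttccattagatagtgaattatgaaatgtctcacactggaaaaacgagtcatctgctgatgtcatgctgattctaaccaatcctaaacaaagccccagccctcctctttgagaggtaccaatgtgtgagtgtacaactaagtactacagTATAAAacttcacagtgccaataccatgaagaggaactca
Inhbb: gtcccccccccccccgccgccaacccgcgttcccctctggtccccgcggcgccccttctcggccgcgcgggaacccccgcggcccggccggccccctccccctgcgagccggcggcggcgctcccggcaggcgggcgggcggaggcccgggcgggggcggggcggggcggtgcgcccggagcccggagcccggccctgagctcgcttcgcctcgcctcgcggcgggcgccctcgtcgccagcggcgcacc
RefSeq annotates the Inhba gene as reaching farther upstream than this start. The Inhba window is 43.6% G and C and the Inhbb window 86.8%, against a median of 51.2% over 33469 rat promoters. The Inhba window holds 1 TATAAA, whose first base lies 40 bases before the start, and the Inhbb window holds none. TATAAA occurred in 12.9% of all promoter windows of this length and in 3 of the 8 members with a promoter in the table, which were Inhba, Fstl3 and Gdf11. The activator protein 1 motif TGANTCA (6.34% of all windows), the cyclic AMP response element TGACGTCA (1.59%) and the Smad palindrome GTCTAGAC (0.173%) occurred in 0 of these 8 windows, each read on both strands. The Smad half-site CAGAC, found in 42.9% of all windows, occurred in 1, that of Fstl3. These are matches of letters and were not tested against the intensities.

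Gdf11, a close relative of myostatin that patterns the embryonic axis, was at 10.36 in the late array and 10.30 in the early array. Its difference of 0.07 was at the median of all compared genes (0.06), and its sign turned under other scalings (-0.013 with quantile normalization). Mstn, the inhibitor of muscle growth, was at 6.41 in the late array and 5.79 in the early array. Both Mstn levels lay under the background level, so no fold is given.

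The follistatin group split more widely than the ligands. The intensities of Fst given above, whose early level was log2 9.04, amount to a difference of 2.96, and both lay above the floor. It ranked 42 from the top of 9738 compared genes, and 0.657% of them were at least as far apart in either direction. Among the 1947 genes of its own brightness quintile the share was 0.514%. The change of Inhba less that of Fst was -2.39, so the ratio of the activin A subunit signal to the follistatin signal was lower in the late array. The 3 compared genes closest to Fst in difference were the desmosomal cadherin gene Dsc2 (2.96), the metal transporter gene Slc11a1 (2.96) and the chemokine receptor gene Ccr1 (2.98). This likeness covers a single difference between 2 arrays. The early levels of Dsc2 (5.89) and Ccr1 (5.99) lay under background, and that of Slc11a1 (6.99) between background and the floor, unlike that of Fst.

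Fstl3, a secreted protein with follistatin domains that also binds activins and myostatin, lay the other way. It was at 11.93 in the late array and 12.44 in the early array, a difference of -0.51 (1.42-fold lower). Its change less that of Fst was -3.47. A difference as low or lower was seen in 7.81% of compared genes. Fstl1, a secreted glycoprotein that shares the follistatin domain but is a distant relative, was at 12.96 in the late array and 13.13 in the early array. Its difference of -0.18 was exceeded in size by most compared genes (60.9% were at least as far apart). Of these 3 genes, Fst was thus higher and Fstl3 lower in the late array, and Fstl1 differed little.

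The receptors showed small differences. Acvr1b, the type I receptor of activins and myostatin, was at 8.94 in the late array and 8.21 in the early array. It was 1.65-fold higher (difference 0.72), with 9.30% of compared genes as high or higher. The type II receptor genes were less far apart. Acvr2a was at 8.85 in the late array and 8.49 in the early array, a difference of 0.36. Acvr2b, a type II receptor that myostatin binds, was at 6.99 in the late array and 7.37 in the early array, between background and the floor. The Acvr2b difference was -0.38, and less that of Acvr2a it was -0.74. Acvr1b and Acvr2a lay in the dimmest and the next dimmest quintile. In those quintiles 23.9% of genes were at least as far apart as Acvr1b and 36.8% as Acvr2a.

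Counted together, 1 of the 8 compared members (12.5%) was at least 2-fold apart, which was Fst, against 8.95% of all compared genes (5.84% higher and 3.11% lower). At 1.5-fold the members were Fst and Acvr1b, 2 higher and 0 lower, against 18.6% of all compared genes (12.1% higher and 6.48% lower). The median difference of the 8 compared members was 0.21, and 0.06 over all compared genes. The members' median was 0.07 with the 75th percentile filter and with the background filter, and 0.12 with quantile normalization. These shares are near the background, and the 2-fold count is Fst alone. Each member has 1 probe set, so none was measured more than once on an array. Over 409 genes with 2 bright probe sets, the SD of the difference within a gene was 0.22, which covers probe error only. The Fst difference is many times that SD, while those of Fstl1 and Gdf11 are smaller than it.

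**Figure D2:**
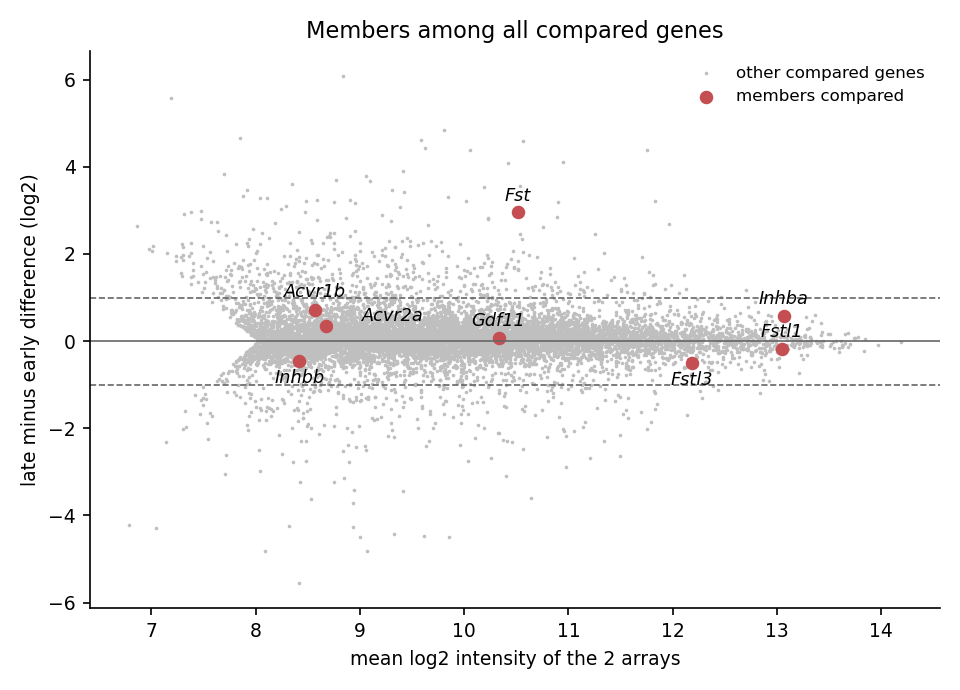
Late minus early difference (log2, vertical axis) against mean log2 intensity of both arrays (horizontal axis) for the 9738 compared genes in grey and the 8 compared members in red; dashed lines mark 2-fold. Fst lies at 2.96, well outside the band that holds most genes of its brightness, and the other 7 members lie inside the dashed lines.

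Other genes of the pathway were taken from 6 lists by role. Of 67 listed genes 64 were found and 42 compared, of which 3 passed 2-fold upward and 2 downward in the late array. That is 11.9%, against 8.95% of all compared genes, and the median difference was 0.11. The sign of that median turned with the filter, to -0.053 over all 64 found and -0.033 over those above background.

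The proteases that cut ligand precursors held both lower genes. Tll1, a tolloid-like metalloprotease, was at 9.17 in the late array and 11.09 in the early array (3.77-fold lower). Tolloid proteases free myostatin from its propeptide. Pcsk6, a proprotein convertase, was at 302 intensity units in the late array and 1023 in the early array (3.39-fold lower). Furin, the convertase that cuts most precursors of this superfamily, went the other way at 11.75 in the late array and 10.83 in the early array (1.90-fold higher). Bmp1, another tolloid family protease, was at 10.04 in the late array and 10.50 in the early array (difference -0.46). Over the 4 compared proteases the median difference was -1.11, and over all 6 it was -0.61.

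Among the listed Smads, the inhibitory Smad6 and Smad7 were higher, and the signalling Smad2, Smad3 and Smad4 were close together. The list held no signalling Smad of the bone morphogenetic protein branch. Smad6, which inhibits mainly the bone morphogenetic protein branch, was at 10.31 in the late array and 8.18 in the early array, 4.37-fold higher. Smad7, the feedback inhibitor of the activin and transforming growth factor beta branch, was at 9.02 in the late array and 8.10 in the early array, 1.90-fold higher. In the dimmest quintile, which holds Smad7, 18.4% of genes were at least as far apart. Nedd4l, a ubiquitin ligase that acts on activated Smads, was 1.75-fold higher. Smad2 was at 10.57 in the late array and 10.92 in the early array. Smad3 (9.37 late, 9.41 early) and the shared partner Smad4 (11.47 late, 11.60 early) differed by less. Of 18 compared genes in this list 1 was at least 2-fold higher (5.56%) and 0 were 2-fold lower, against 5.84% and 3.11% of all compared genes. The median difference of the list was 0.11.

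Of 9 compared receptors and co-receptors outside the member list, 2 were at least 2-fold higher (22.2%) and 0 lower. Of all compared genes 5.84% were higher and 3.11% lower at 2-fold. Tgfbr3, the co-receptor betaglycan, which binds inhibin and transforming growth factor beta, was at 8.59 in the late array and 7.29 in the early array (2.47-fold higher). Its early level was under the floor, and 11.9% of genes in its brightness quintile were at least as far apart. Bmpr1b, a type I receptor of bone morphogenetic proteins, was 2.03-fold higher, and Acvrl1, a type I receptor known from endothelium, 1.87-fold higher. Tgfbr1, which GDF11 and myostatin can also use, was at 9.94 in the late array and 9.63 in the early array. Of the other binding proteins, Wfikkn1, which binds myostatin and GDF11, was at 8.12 in the late array and 8.25 in the early array. That list and the list of other ligands had 2 compared genes each, none of them 1.5-fold apart, against 18.6% of all compared genes.

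**Figure D3:**
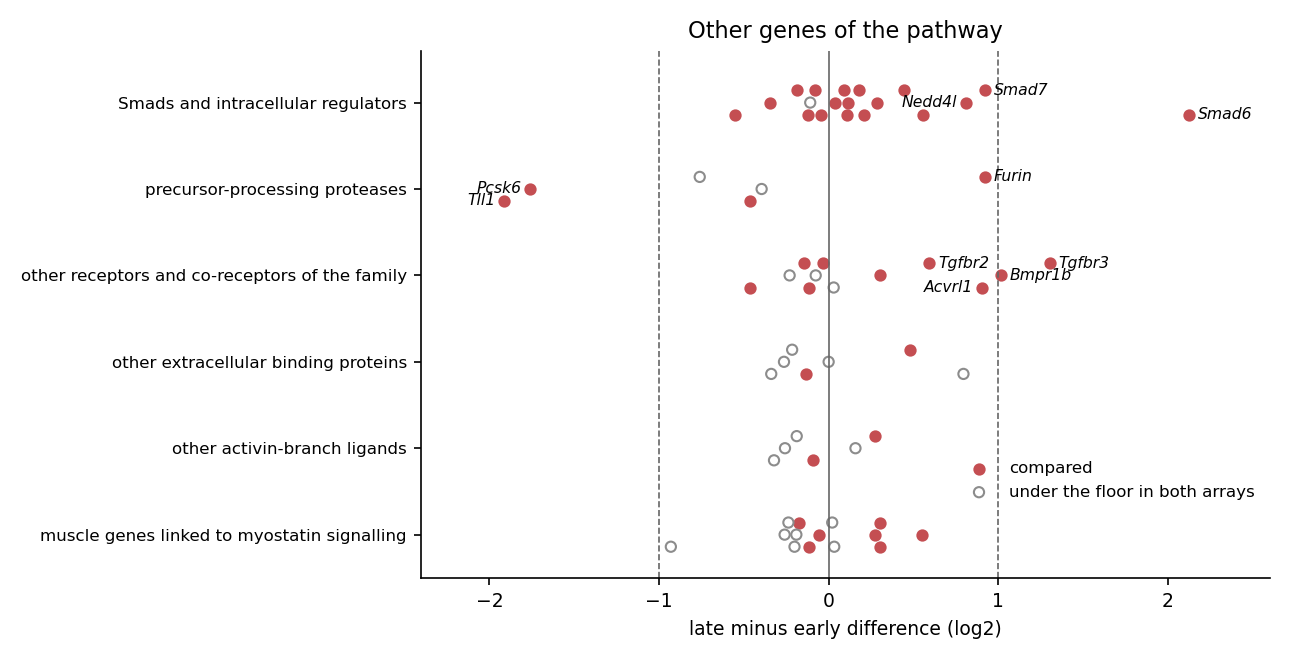
Late minus early difference (log2, horizontal axis) of the 64 pathway genes found, in a row for each list; filled points were compared, open points stayed under the floor in both arrays, names mark compared genes at least 1.5-fold apart and dashed lines mark 2-fold. Smad6 (2.13) lies farthest to the right, and Tll1 (-1.92) and Pcsk6 (-1.76) lie farthest to the left.

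Muscle genes linked to myostatin signalling gave 0 of 7 compared genes at 1.5-fold, against 18.6% of all compared genes. Their median difference was 0.27, and it was -0.087 over all 14 found. The atrophy ubiquitin ligase genes, named after their values were seen, are induced where this pathway is active in muscle fibres. Fbxo32 was at 8.93 in the late array and 9.10 in the early array. Trim63 was under the floor at 6.21 in the late array and 7.14 in the early array. Fbxo30, another ubiquitin ligase gene of that list, was at 9.20 in the late array and 9.31 in the early array. Myogenic transcription factor genes gave little signal. Pax7 was at 7.38 in the late array and 7.35 in the early array, Myf5 at 6.91 late and 7.10 early, and Myod1 at 6.65 late and 6.85 early. All these levels lay under the floor, and the late Myod1 level under background. Of 10 myogenic markers 4 were compared, with a median difference of -0.60. At least 2-fold lower were 2 of these 4, against 3.11% of all compared genes. The integrin gene Itga7 was at 8.84 in the late array and 10.37 in the early array (2.89-fold lower). Megf10, a satellite cell surface gene, was at 320 intensity units in the late array and 775 in the early array (2.42-fold lower). The intermediate filament gene Des was 1.58-fold higher, with its early level of 7.61 under the floor. The adhesion gene Ncam1 was at 12.05 in the late array and 11.98 in the early array.

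Markers of other cell types also differed between the arrays. The summed intensity of 8 fibroblast markers was 28348 in the late array against 41319 in the early array. Col1a1 and Thy1 carried most of it. The median difference was -0.54 over the 6 compared, of which 5 were lower and 1 was higher. At least 2-fold lower was 1 of these 6 (16.7%), against 3.11% of all compared genes. The summed intensity of 4 cartilage markers was 1857 in the late array against 6448 in the early array. Acan and Sox9 carried most of this sum, at differences of -4.42 and -1.20, while Col2a1 (-0.52) and Matn1 (-0.20) lay closer together. The late level of Acan, 7.12, lay under the floor and little above background. The sum over 10 myogenic markers was 6127 in the late array and 7169 in the early array. Most of it was Ncam1, at 4248 in the late array and 4028 in the early array. Over 6 smooth muscle and pericyte markers the sum was 22172 in the late array and 29348 in the early array. In the smooth muscle and pericyte list Cspg4, a pericyte proteoglycan gene, was 5.22-fold lower, and the median of the 5 compared was -0.41. Of 7 white blood cell markers 2 were above background in the late array and 1 in the early array. Cd68 was at 8.12 in the late array and 6.77 in the early array, the latter under background. Cd14 was at 9.57 in the late array and 8.81 in the early array. The median difference of these 2 compared markers was 1.06, and the other 5 stayed under the floor. The summed level of all 7 was 1382 in the late array and 914 in the early array. Summed levels were 465 late and 381 early for 4 endothelial markers, and 495 late and 562 early for 5 adipocyte markers, with none of either list compared. The higher endothelial sum came from Tek (198 late, 94 early), while Cdh5, Vwf and Emcn were each slightly lower in the late array. The early Tek level lay under background, as did Vwf and Emcn in both arrays. No marker had a value of 0, and the part of these shifts in the follistatin difference was not tested.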

How the data were processed

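RNA of 2 MDSC samples was read on 1-colour arrays. The authors deposited normalized intensity values on a linear scale, 1 per probe set and array, per the file headers, in 2 tables with identical values for all 29214 probe sets. How background, summary and normalization were handled, the software and the genome build are not given in the labels or headers. Of the probe sets, 20164 named 1 gene, 328 several and 8696 none, and 26 carried a number in place of a symbol. Only the first kind was used, and log2 values of probe sets of a gene were averaged. RefSeq names matched older symbols.

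With 1 array per group, no test, p-value or SD across samples was possible, and the number of arrays limits the precision. The counts are of genes at least 2-fold apart, among those whose brighter level reached the median. Alternatives changed the fold threshold, the filter, the scaling, the pseudocount (16) and the choice of probe set. The fold calls were tested on simulated data. Those data held planted changes well past 2-fold and do not measure variation between cultures or rats. The members, lists, background level and naming rule were chosen with earlier results of these data known. The rule names all members, the 3 highest and 3 lowest genes of each list at least 1.5-fold apart, 10 fixed pathway genes and the 3 genes nearest to the member that differed most. Wfikkn2 of the fixed genes was not analysed here. The tools were numpy 2.4.6, scipy 1.17.1, statsmodels 0.14.6, pandas 2.3.3 and matplotlib 3.10.9 under Python 3.11.15.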

Additional observations from a re-analysis of the deposited data

How the results depend on the processing

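With median centring, a lowess trend removed, quantile normalization, a pseudocount of 16 or the brightest probe set, all 50 recomputed member differences stayed within the probe set SD of 0.22 of the reported ones, and the largest move was 0.12. The sign turned in 2 of them, both of Gdf11. Each member has 1 probe set, so taking the brightest probe set could not move any member. Median centring took the same 0.06 from every member. The Fst difference ran between 2.88 and 2.96, and that of Inhba less Fst kept its sign. Fst was the only member at least 2-fold apart under each setting of scaling or filter tried, and at 3-fold. At a 1.5-fold threshold 2 members were higher, where 1 was at 2-fold. The count of pathway genes higher, 3 as reported, was 8 at 1.5-fold, 1 at 3-fold and 1 with the 75th percentile filter, by the construction of those settings. It was 2 under centring, lowess, quantile normalization and the pseudocount, with Bmpr1b (2.03-fold) close to the threshold. The filter above background was added after the data were seen. No paired analysis was possible because each group has 1 array, and for the same reason no array could be left out. Mstn lay under background in both arrays, and Acvr2b lay above it but under the floor.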
